A study of Mus musculus with 4 samples.

Results

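The unfolded protein response is the programme by which a cell senses misfolded protein in the endoplasmic reticulum (ER) and adjusts translation, chaperone supply and survival. The 10 genes described here were chosen by name: the sensors Eif2ak3 (PERK), Ern1 (IRE1) and Atf6, and the effectors Atf4, Ddit3 (CHOP), Trib3, Ppp1r15a (GADD34), Xbp1, Hspa5 (BiP) and Wfs1. They are 10 of 21900 protein-coding genes in the reference used for names. Of the 10, 7 were listed among genes related to differential m6A peaks between GR-transfected and control MIN6 cells, and the 3 absent genes were the 3 sensors. Across all protein-coding genes, 25.2% were listed.

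N6-methyladenosine (m6A), a methyl mark on adenosines of messenger RNA, was compared in MIN6, a mouse insulinoma line with C57BL/6 given as its strain that serves as a model of pancreatic beta cells. One arm had been transfected with a GR expression vector and the other with a control vector, each with 10 µg of plasmid per dish in medium containing 25 mM glucose, and RNA was taken 24 hours later. GR is read here as the glucocorticoid receptor, which the labels do not spell out. Each arm gave 1 library from immunoprecipitation with an anti-m6A antibody and 1 input library, 4 libraries in all. With 1 library of each kind per arm there is no replicate check, and no test between arms was made. The promoter of the vector and any exposure to a glucocorticoid are not stated, and transfection was transient.

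No table used here has a value per library, only the outcome of the comparison of GR with control, so the depth behind each entry is unknown and no RNA level of any gene can be set beside its m6A. The gene table gives an Ensembl gene ID, a symbol and protein domain names per line, with no position, size or direction. Its 17052 lines held 9225 distinct IDs. The meaning of a line is nowhere given, and being listed is not a measured gain or loss of m6A. Absence is not evidence of an unchanged transcript either: of 22 autophagy genes for which the authors deposited peaks with a fold change, 13 were not in the gene table. None of the 10 genes was in that autophagy table, so no peak position or fold change can be given for any of them. The labelled cell type can be set only beside the listing of markers, which carries no RNA level. Against the 25.2% of all protein-coding genes, 11 of 15 beta-cell markers (73.3%) were listed, among them Slc30a8, Mafa, Nkx2-2 and Pdx1 (but not Ins2, Iapp, Neurod1 or Ucn3). Of the markers of other cells, 0 of 8 acinar and ductal genes, 1 of 8 genes of other islet endocrine cells (Gcg, 12.5%) and 1 of 5 blood, endothelial and mesenchymal genes (Cd68, 20%) were listed, counts too small to be read apart from that background.

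As background, 3 proteins in the ER membrane start the response. PERK is a kinase that phosphorylates the translation factor eIF2alpha, which slows most protein synthesis and lets the transcription factor ATF4 be made. IRE1 is a kinase and RNase that cuts an intron out of the Xbp1 message, so that an active XBP1 transcription factor is translated. ATF6 travels to the Golgi, where proteases release its transcription factor domain. The ER chaperone BiP binds the sensors and is also a target of the response. Beta cells fold large amounts of proinsulin and are known to depend on PERK and on the ER membrane protein wolframin, the product of Wfs1, for survival.

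The response acts on its targets through short promoter elements, and these were searched in RefSeq promoters (GRCm38.p6, 250 bases before to 50 after each gene start) because no m6A site of these genes was given. Of the 10 genes, 9 had a promoter there, and Atf6 did not. The ER stress element ERSE (CCAAT and CCACG with 9 bases between them, either strand) was found in Hspa5, where it begins 65 bases before the gene start, and in 0.119% of all 32851 promoters. The C/EBP-ATF response element CARE (TGATGNAA, either strand) was found in Trib3, on the opposite strand and 14 bases past the first transcribed base, and in 3.97% of all promoters. Neither ERSE-II (ATTGG and CCACG with 1 base between them) nor the unfolded protein response element UPRE (TGACGTGG), present in 0.0365% and 0.676% of promoters, matched in any of the 9. The letters of both matches are shown 5′ to 3′ on the gene strand, with the fixed bases of the motif in capitals, at chr2:34772020-34772048 (plus strand) for Hspa5 and chr2:152344034-152344051 (minus strand) for Trib3.
Hspa5: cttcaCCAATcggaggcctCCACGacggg
Trib3: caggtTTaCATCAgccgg
These matches describe the genes and say nothing of the m6A comparison.

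The PERK arm had 4 of its 5 genes listed, on 9 lines in all, where 25.2% of all protein-coding genes were listed. Eif2ak3, the sensor kinase, was absent. Atf4, which is translated when eIF2alpha is phosphorylated, was on 2 lines. Ddit3, the gene of the transcription factor CHOP that ATF4 induces and that promotes cell death, was on 3 lines. These lines carry only 1 of the 2 IDs with that symbol, and no domain is named for it. Both feedback genes were listed as well: Ppp1r15a, the regulatory subunit of the phosphatase that removes the phosphate from eIF2alpha, was on 3 lines, and Trib3, a pseudokinase that CHOP and ATF4 induce, was on 1 line. All 4 downstream genes of this arm were thus listed, Ddit3 by that ID alone. The absent sensor is 1 gene, and most protein-coding genes were absent too.

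The IRE1 arm had 1 of 2 genes listed. Xbp1, the substrate of the IRE1 RNase, was on 2 lines and Ern1 was absent. The ATF6 arm, with its chaperone and its regulator, had 2 of 3 genes listed on 7 lines. Wfs1, an ER membrane protein that restrains ATF6 and whose loss in humans causes Wolfram syndrome with diabetes, was on 5 lines, the highest number of the 10 genes. Hspa5 was on 2 lines, and Atf6 was absent. With 5, 2 and 3 genes per arm, the shares of 80%, 50% and 66.7% differ by a gene or so, and the difference between arms was not tested. Over the arms, 0 of 3 sensors and 7 of 7 effectors were listed, with Ddit3 counted under 1 of its 2 IDs. Across all protein-coding genes, 25.2% were listed. In the classes of genomic span described below, the shares were 23.8% for that of Eif2ak3 and Ern1 and 17.4% for that of Atf6. Most genes of those classes were absent, so the absence of 3 sensors is not set apart from that background. The sorting of Hspa5 and Wfs1 with the effectors was made with the lines known.

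**Figure D1:**
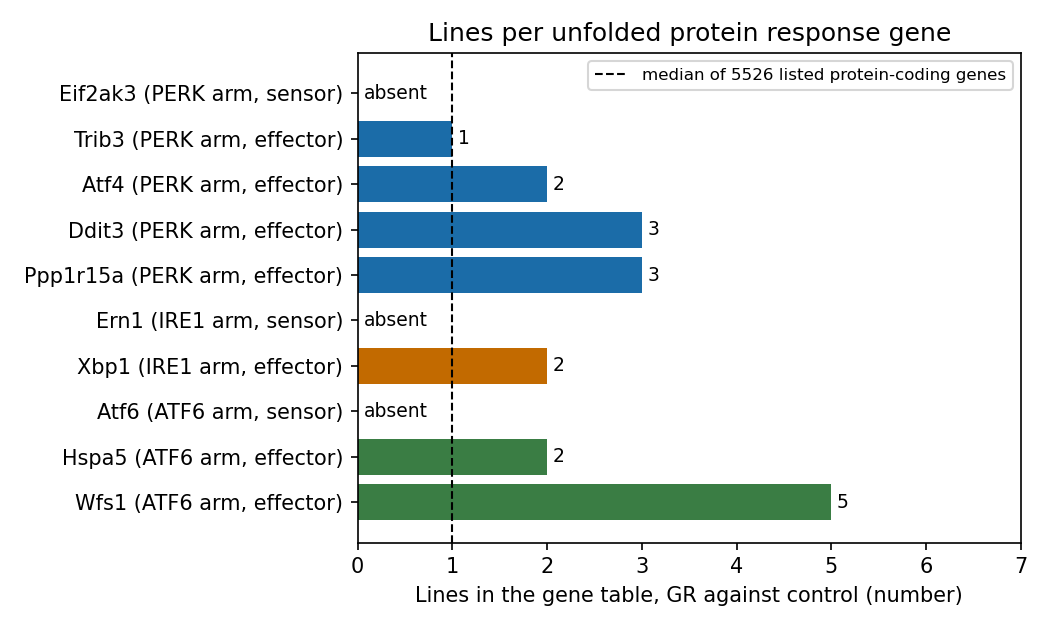
Number of lines per gene in the gene table of GR against control, by arm of the response, with the sensor of each arm first. The 3 sensors are absent, Wfs1 has 5 lines, and the dashed line marks the median of 1 line over 5526 listed protein-coding genes.

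The 7 listed genes had a median of 2 lines, against a median of 1 (quartiles 1 and 2) over the 5526 listed protein-coding genes. Of the 7, 6 were on 2 or more lines, as were 44.5% of listed protein-coding genes and 11.2% of all protein-coding genes. Wfs1, Ddit3 and Ppp1r15a were on 3 or more lines, as were 19.4% of listed genes, and 4.11% of listed genes had 5 or more. All lines of a gene were identical to each other in ID, symbol and domain names, so they cannot be told apart by position or size.

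The listed genes were also the shorter ones. Their genomic spans ran from 2.36 kb (Atf4, chromosome 15, 80255184 to 80257545) to 22.9 kb (Wfs1, chromosome 5, 36966104 to 36988982), with Ppp1r15a at 3.35 kb, Hspa5 at 4.44 kb, Xbp1 at 5.35 kb, Ddit3 at 5.5 kb and Trib3 at 6.64 kb. The absent sensors spanned 60.8 kb (Eif2ak3, chromosome 6, 70844484 to 70905241), 90.2 kb (Ern1, chromosome 11, 106397620 to 106487796) and 164 kb (Atf6, chromosome 1, 170704457 to 170868585). The spans of listed and absent genes did not overlap among these genes. Over all protein-coding genes they did. Of 2190 genes spanning 57.1 to 108 kb, 521 were listed, and of 2190 spanning 109 to 2390 kb, 382 were. The bounds given are those of RefSeq on GRCm38.p6, the assembly from which mm10 is made.

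Over the whole table, the share of genes listed was lower among the longest genes. When all protein-coding genes were cut into 10 classes of equal size by span, 28.7% of genes were listed in the class of Atf4 and Ppp1r15a (1.53 to 4.16 kb), 32.1% in the class of Ddit3, Trib3, Xbp1 and Hspa5 (4.16 to 7.36 kb) and 29.1% in that of Wfs1 (17.1 to 24.6 kb). In the class of Eif2ak3 and Ern1 (57.1 to 108 kb) 23.8% were listed, and in that of Atf6 (109 to 2390 kb) 17.4%. In the shortest class, which holds none of the 10 genes, 5.02% were listed. The part of length in the split between sensors and effectors was not tested, and neither was that of RNA level.

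**Figure D2:**
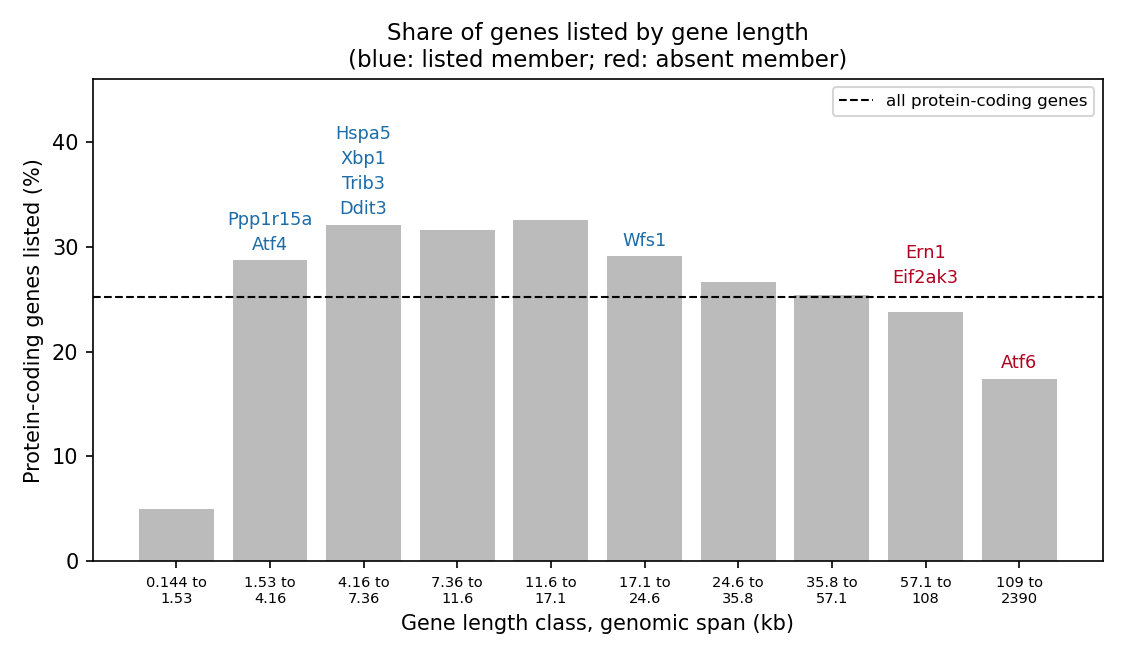
Share of protein-coding genes listed in 10 classes of genomic span (2190 genes each), with the 10 genes written above the class they fall in, listed ones in blue and absent ones in red. The effectors lie in classes of short and middle length at 28.7% to 32.1% and the sensors in the longest 2 classes, at 23.8% and 17.4%; the dashed line is the 25.2% of all genes.

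Ddit3 was listed under 1 of the 2 Ensembl IDs that the reference pairs with this symbol. All 3 lines carry ENSMUSG00000116429, for which the table gives no domain name, whereas ENSMUSG00000025408 is absent. The listed ID occurs in no GO row and no KEGG row. Of 5526 listed protein-coding IDs, 289 were likewise in no GO row, whereas 1803 (32.6%) were in any KEGG row, so absence from KEGG was common. Every count of GO or KEGG genes below therefore leaves Ddit3 out. Of all protein-coding symbols, 28 have several IDs, and 9 of these were listed.

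Other genes share the bounds of some of the 10. Hspa5 overlaps the span of Rabepk, which was on 1 line, and without position or strand the lines of both genes cannot be assigned to one transcript. Ddit3 overlaps Mbd6 and Mars1, and Ppp1r15a overlaps Tulp2, none of which was listed. Within the bounds of the absent Atf6, the non-coding RNA genes Gm9929 (2 lines) and Gm23523 (1 line) were listed. Atf4, Xbp1, Trib3, Wfs1 and Ern1 overlap no other gene of the reference.

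Beyond the 10 genes, 4 wider lists held 85 genes of the response, of which 35 (41.2%) were listed, against 25.2% of all protein-coding genes. Without the 10 genes the count was 28 of 75, or 37.3%. The 25.2% takes in genes whatever their RNA level, which is not given, so the part of RNA level in this difference was not tested. The lists were also chosen with earlier results of these data known. The listed genes of the wider lists were the shorter ones at the median, 8.82 kb against 20.8 kb for those absent. These medians include the 10 genes, so they partly repeat the split by length given above, and they were not taken without them. In the list of ER-associated degradation, which holds none of the 10, the order was the other way, 24.9 kb against 22.3 kb. Averaged over the length classes of the 85 genes, the share of all protein-coding genes listed was 28.4%.

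In the wider PERK arm and integrated stress response, 11 of 25 genes (44%) were listed, and 7 of 20 (35%) without the 10. Atf5, a transcription factor of the ATF4 family, led with 4 lines. The eIF2B exchange factor, through which phosphorylated eIF2alpha slows translation, had Eif2b1 on 3 lines and Eif2b2 on 2, while its subunits Eif2b3, Eif2b4 and Eif2b5 were absent. Nupr1, a stress-induced chromatin protein, was on 2 lines. Eif2s1, which encodes eIF2alpha itself, Chac1, a glutathione-degrading enzyme that ATF4 induces, and Eif2ak2, the kinase PKR, were on 1 line each. PKR was the only one of the 4 eIF2alpha kinases listed: Eif2ak1 and Eif2ak4 were absent along with Eif2ak3. Also absent were Atf3, Ppp1r15b, Dnajc3, Asns, Sesn2, Ero1a, Eif4ebp1 and Nfe2l2.

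In the wider IRE1 arm, 5 of 18 genes (27.8%) were listed, close to the background, and 4 of 16 (25%) without the 10. The BCL2 family proteins Bax (4 lines) and Bak1 (2 lines), which bind IRE1 and also permeabilise mitochondria, were listed. So were Ssr1, a subunit of the translocon-associated complex (4 lines), and Dnajb11, a BiP co-chaperone (2 lines). The enzyme that ligates the Xbp1 message after the cut, Rtcb, was absent, as were the paralogue Ern2, the signalling partners Traf2, Map3k5 and Mapk8, the XBP1 targets Dnajb9 and Edem1, the channel genes Sec61a1, Sec61b and Sec63, Bloc1s1 and Tmbim6.

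The wider ATF6 arm with the ER chaperones had 13 of 22 genes listed (59.1%), and 11 of 19 (57.9%) without the 10. Mbtps1, the site-1 protease that makes the first cut in ATF6, was on 5 lines, as many as Wfs1, whereas Mbtps2, the site-2 protease, was absent. Manf and Sdf2l1, small ER stress-induced proteins, were on 2 lines each. Those on 1 line were the chaperones Hsp90b1, Calr and Canx, the disulphide isomerases Pdia4 and P4hb, the BiP nucleotide exchange factor Sil1, and the membrane-bound factors Creb3 and Creb3l2. Absent were Atf6b, Hyou1, Pdia3, Pdia6, Creld2, Creb3l1 and Creb3l3 besides Atf6 and Mbtps2.

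ER-associated degradation, which exports misfolded protein to the proteasome, had 6 of 20 genes listed (30%). Derl1, a channel component, was on 2 lines, and Derl3, Os9, Edem2, Nploc4 and Aup1 were on 1. Among those absent were the core ligase Syvn1, its partner Sel1l and the ATPase Vcp, and also Herpud1, Derl2, Erlec1, Edem3, Ufd1, Ube2j1, Ube2g2, Rnf5, Faf2 and Selenos. The differences between the 4 lists were not tested.

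**Figure D3:**
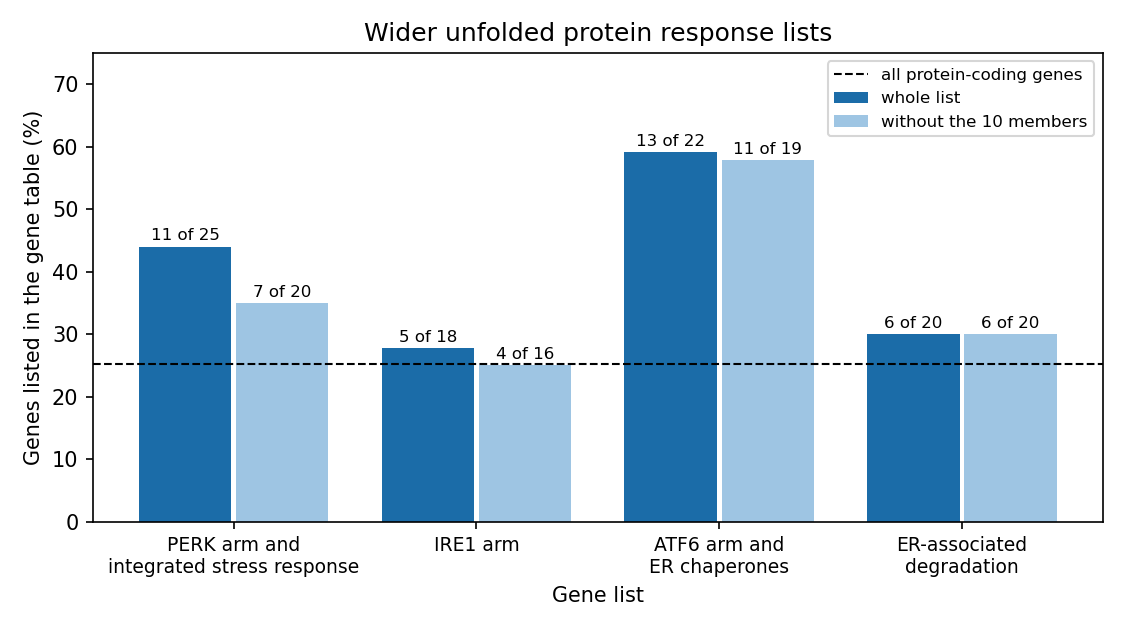
Share of genes listed in 4 wider lists of the response, as whole lists (dark) and without the 10 genes (light), with counts above the bars. The ATF6 and chaperone list stands at 59.1%, the PERK list at 44%, and the IRE1 and degradation lists at 27.8% and 30%, nearer the 25.2% of all protein-coding genes (dashed).

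The Gene Ontology (GO) table gives, for each of 16568 terms, how many genes with a peak it holds. In the authors' deposited table every term has a p of 1 before and after correction, so 0% of terms were called and no term can be ranked. The term response to endoplasmic reticulum stress held 82 genes with a peak of 210 in the background, 39%. It contained 6 of the 10 genes, Atf4, Hspa5, Ppp1r15a, Trib3, Wfs1 and Xbp1. Those 6 occurred together in 55 terms, of which this was the smallest. The next smallest had 1690 background genes.

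How that 39% compares with the whole table depends on the total used. The deposited totals are 10022 genes with a peak of 20770, or 48.3%. That 10022 exceeds the 9225 distinct IDs of the gene table, so it cannot count distinct genes of that table. The terms together hold 5409 distinct IDs, 26% of 20770. The 82 genes of the term are distinct, so the 26% counts genes with a peak in the same way. Whether the total of 20770 counts distinct genes was not checked. The term thus lay 9.2 percentage points below the first share and 13 points above the second.

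By name, 43 terms concern ER stress, unfolded protein or an arm of the response, and 35 of them held at least 1 of the 10 genes. Endoplasmic reticulum unfolded protein response held 24 of 60 genes (40%), cellular response to unfolded protein 28 of 74 (37.8%) and response to unfolded protein 41 of 101 (40.6%), and each contained Atf4, Hspa5, Ppp1r15a, Wfs1 and Xbp1. Trib3 was not in those 3 terms. It was with Atf4, Wfs1 and Xbp1 in the term for the intrinsic apoptotic pathway in response to ER stress, 23 of 62 (37.1%). Regulation of response to ER stress had 26 of 68 genes and its negative regulation 17 of 42, each with Hspa5, Ppp1r15a, Wfs1 and Xbp1.

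The terms named after single arms were small. PERK-mediated unfolded protein response held 2 of 9 genes, Atf4 and the adaptor gene Nck1. IRE1-mediated unfolded protein response held 4 of 11, namely Hspa5, Cops5, Ficd and Parp16, and Xbp1 was not among them. ATF6-mediated unfolded protein response held 1 of 3, Wfs1. Regulation of the arms gave 1 of 7 for PERK (Nck1), 3 of 7 for IRE1 (Hspa5, Cops5 and Ficd) and 1 of 3 for ATF6 (Wfs1). Counts of this size set no arm apart from the others.

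Terms on eIF2alpha turned on Ppp1r15a. It was with Nck1 in the phosphorylation of eIF2alpha in response to ER stress (2 of 7 genes) and with Nck1 and Eif2ak2 in regulation of translational initiation by eIF2alpha phosphorylation (3 of 11). It was the single gene of eIF2alpha dephosphorylation in response to ER stress (1 of 1). Among transcription terms, CHOP-ATF4 complex held 1 of 2 genes, Atf4, and CHOP-C/EBP complex 1 of 3, Cebpb. Ddit3 encodes CHOP but, under its listed ID, counts in neither. Negative regulation of the ER unfolded protein response held 5 of 10 genes, Hspa5, Wfs1, Xbp1, Crebrf and Nck1.

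**Figure D4:**
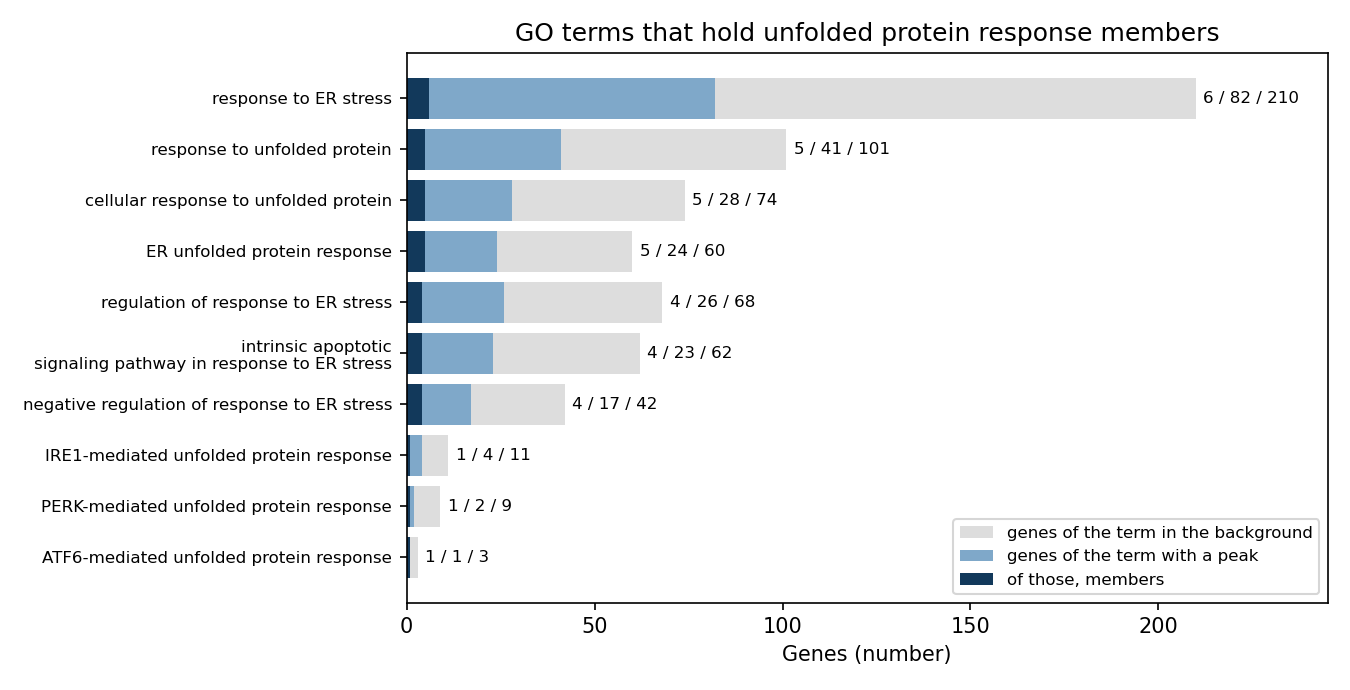
GO terms with 4 or more of the 10 genes, and the 3 terms named after an arm, with members, genes with a peak and background genes per term written beside each bar. The largest term, response to ER stress, holds 6 of the 10 genes among 82 of 210, and each arm term holds 1.

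In the KEGG table the row Protein processing in endoplasmic reticulum held 75 input IDs against 167 background genes (44.9%). The authors' deposited table gives it p = 1.84e-09, adjusted to 2.06e-08. It ranked 26 of 290 pathways by p, in a table where 66.9% of pathways had an adjusted p below 0.05. Among the inputs were Atf4, Hspa5, Ppp1r15a, Wfs1 and Xbp1, 5 of the 10 genes. The row also held Eif2s1, Eif2ak2 and Mbtps1 of the wider arms. The absent Ern1, Eif2ak3 and Atf6 could not enter it, and Ddit3 did not under its listed ID.

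The 75 IDs map to 66 distinct Entrez genes (39.5% of 167). The table gives 13 of the IDs no symbol, and the reference classes 7 of these as pseudogenes. Hsp90ab1 was counted under 4 IDs, and Eif2s1, Calr, Hsp90b1, Hsp90aa1, Bag2 and Hspa1l under 2 each, which accounts for all 9 surplus IDs. None of the 10 genes was counted more than once. Highest in lines within the row were Wfs1 and Mbtps1 with 5, followed at 4 by Bax, Ssr1, the ubiquilin gene Ubqln2, the glucosidase II subunit genes Ganab and Prkcsh, and the unnamed model Gm37885.

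Of the 7 listed genes, 6 occurred in some KEGG row, as did 32.6% of listed protein-coding IDs, and 30 rows held at least 1 of them. Atf4 was in 26 of these rows and alone in 22, among them insulin secretion, apoptosis, MAPK signaling and PI3K-Akt signaling. Non-alcoholic fatty liver disease and HTLV-I infection held Atf4 with Xbp1, and thyroid hormone synthesis held Atf4 with Hspa5. Trib3 was in insulin resistance only, where 50 IDs stood against 111 background genes. The authors' deposited table gives that pathway an adjusted p of 4.33e-06. Wfs1 and Ppp1r15a were in the ER row only. Protein processing in endoplasmic reticulum was the only row with 3 or more of the genes.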

How the data were processed

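RNA of MIN6 cells transfected with GR or control vector was fragmented to about 100 nt, and input and anti-m6A libraries were sequenced in pairs of 150 bp, per the labels' protocols. BWA 0.7.12, HOMER 4.9.1 and mm10 are named in the submitters' processing notes; the program that called differential peaks is not given in the sources used here. The gene table deposited by the authors has no numeric value. The KEGG and GO p-values are the authors'; per the file headers the KEGG ones come from a hypergeometric or Fisher's exact test with Benjamini and Hochberg correction.

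Lines were counted per Ensembl ID, with IDs taken by symbol from a reference table, and 1 or more lines made a gene listed. Overflow lines of long GO gene lists were joined to their terms. Lengths, bounds and gene classes came from RefSeq genes of GRCm38.p6, and promoters from RefSeq. All 10 members matched. Counting was checked on simulated data. The members and lists were chosen with earlier results of these data known. Every member is named, as are wider-list genes on 2 or more lines and those absent (with 1 exception not reported here), and KEGG rows with 3 or more members; the other KEGG rows, promoter elements and length classes were chosen after values were seen. No test across conditions was made. Depth per sample is unknown. Alternatives were matching by symbol, a limit of 2 lines, identical lines counted once, other denominators and distinct Entrez genes. Python 3.11.15, pandas 2.3.3, SciPy 1.17.1 and Matplotlib 3.10.9 were used.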

Additional observations from a re-analysis of the deposited data

How the results depend on the processing

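Matching by deposited symbol gave 7 listed members as before, and a limit of 2 lines gave 6. The 18 lines of the members became 7 when identical lines were counted once. That count was fixed in advance at the number of listed members, since all lines of a gene were identical. The share of protein-coding genes listed, 25.2%, was 24.5% over all named genes, 11.2% with 2 or more lines and, as a setting added after the data were seen, 26.2% in the length classes that hold a member. The 35 listed genes of the wider lists were 28 without the members and, also added later, 18 with 2 or more lines. The KEGG row on protein processing in the ER held 5 members by IDs and by Entrez genes, and its share of 44.9% was 39.5% by Entrez genes. The exact Clopper-Pearson 95% interval of the first share, 37.2% to 52.8%, covers counting error only. It treats the IDs as independent although some repeat a gene, so the second share lying inside it is no check. The GO term response to ER stress differed by -9.2 percentage points from the share given by the deposited totals and by 13 points, in the other direction, from the share given by distinct IDs, since the 2 shares differ. Only the share given by distinct IDs counts genes with a peak in the way the term does. Whether its deposited background total counts distinct genes was not checked. The 35 GO terms chosen by name became 1182 when every term with a member was counted, which only widens the choice. No paired analysis was possible because each arm had 1 library of each kind and no value per library is given. The unknown depth, the missing positions and the missing folds limit what can be said of any single gene.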

Other observations

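Among the 82 genes with a peak in the GO term response to ER stress, 60 were in none of the 4 wider lists. On 3 or more lines were 15 of the 82 (18.3%), near the 19.4% of all listed protein-coding genes. Of the 60, Bhlha15, which encodes the secretory cell transcription factor MIST1, and Rasgrf1, a Ras exchange factor, were on 8 lines each. Ubxn4, an ER membrane protein of the degradation pathway, was on 6, and Ficd, the enzyme that adds AMP to BiP, was on 5. The BCL2 family genes Bbc3 (PUMA) and Bcl2 were on 3 lines each and Bcl2l11 (BIM) on 1. These genes were chosen after their lines were seen.

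A basic-leucine zipper, the DNA-binding domain that Atf4 and Xbp1 share, was named for 25 listed IDs. Of these, 13 (52%) were on 2 or more lines and 3 (12%) on 3 or more, against 44.5% and 19.4% of listed protein-coding genes. Domain names are given for listed IDs only, so genes with the domain outside the table were not counted. Atf5 and the beta-cell factor Mafa had 4 lines each and Crebzf had 3. A further 10, with Atf4 and Xbp1 among them, had 2 lines: Atf1, Bach1, Cebpd, Crebrf, Junb, Maff, Mafk and Nfe2l1 are the rest. The remaining 12 had 1 line, among them Creb3, Creb3l2, Cebpb, Jun and Fos. Ddit3 is also known to carry this domain, but its listed ID has no domain name and so falls outside the 25.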
